A study of Mus musculus with 18 samples.

Results

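Tgm2, Hic1 and Dhrs3 are genes known to be induced by retinoic acid, and they are described here across every group of a study of mouse brain microglia and macrophages given the retinoid X receptor (RXR) agonist bexarotene. The members were found as the rows of the deposited count table whose Ensembl identifiers carry these symbols, which gave 3 of 57010 genes. All 3 passed the filter on low counts, with 15528 genes tested in all. Tgm2 encodes transglutaminase 2, a calcium-dependent enzyme that crosslinks proteins and also binds GTP. Hic1 encodes a zinc finger transcriptional repressor. Dhrs3 encodes a short-chain dehydrogenase that turns retinaldehyde back into retinol and so lowers the supply of retinoic acid.

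Retinoic acid is made from vitamin A in a pair of steps, by retinol dehydrogenases such as Rdh10 and then by the retinaldehyde dehydrogenases of the Aldh1a family, and it is broken down by the Cyp26 enzymes. It binds the retinoic acid receptors (RAR), which sit on DNA as pairs with RXR. RXR also pairs with the liver X receptors and the peroxisome proliferator-activated receptors, and bexarotene binds RXR itself, so genes of several receptor pairs can respond to it. Transglutaminase 2 is known as a retinoid-induced gene of macrophages, where it takes part in the uptake of dying cells.

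The data were bulk RNA sequencing of brain cells of male mice labelled WT (wild type), with 18 libraries in 6 groups of 3 that the labels call biological replicates. Tissue was digested with papain and DNase I, cleared on 30% Percoll, depleted of Ly6G-bearing cells and selected for CD11b with magnetic beads, and libraries were made with a SMART-Seq v4 PLUS kit. The groups were young bexarotene and young vehicle (2 to 4 months old, without stroke), aged bexarotene and aged vehicle (18 to 20 months old, without stroke), and aged stroke bexarotene and aged stroke vehicle (18 to 20 months old, with ischemic stroke by middle cerebral artery occlusion, MCAo). Bexarotene (5 mg/kg, intraperitoneal) was begun 24 hours after surgery and repeated on each of 2 days. Its solution and the vehicle, saline, both held 3% DMSO, and every group is labelled day 3. The sources used here give neither the surgery of the mice without stroke nor whether a library pools animals. There were no young mice with stroke.

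The 6 stroke libraries held 16206144 to 29359943 counts and the 12 libraries without stroke 7582511 to 11852638. A floor of 3 counts was at most 0.185 CPM (counts scaled by the library's TMM-adjusted total) in the stroke libraries and at most 0.396 CPM in the others. This floor and the counting intervals given below cover counting error only, because reads here carry no molecular identifiers and can be copies. The labelled cell type was checked on 8 microglial markers, none of which was at 0 in any group. Their summed level was 16000 to 19900 CPM in the stroke libraries and 34400 to 49800 CPM in those without stroke. The summed level of 8 markers of infiltrating monocytes was 2770 to 5320 CPM with stroke and 45.9 to 201 CPM without. Stroke therefore moved together with depth and with these marker levels, and their part in the stroke results below was not tested. In bulk RNA, fewer cells of a type and less RNA per cell cannot be told apart.

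The members lie on 3 chromosomes. Tgm2 (ENSMUSG00000037820) is on the minus strand of chromosome 2, Hic1 (ENSMUSG00000043099) on the minus strand of chromosome 11, and Dhrs3 (ENSMUSG00000066026) on the plus strand of chromosome 4, by GENCODE M21, an annotation of GRCm38 rather than of the authors' GRCm39. Their exons together cover 4608 bp for Tgm2, 3750 bp for Hic1 and 2927 bp for Dhrs3. Per kilobase of exon, the level of Dhrs3 was the most even, at 59.0 to 104 CPM per kb as group means. Tgm2 had 169 CPM per kb in aged stroke bexarotene mice, 74.6 to 79.6 in the other 2 bexarotene groups, 74.9 in aged stroke vehicle mice and 16.8 to 18.0 in the vehicle groups without stroke. Hic1 was far lower on this scale, at 7.13 CPM per kb in aged stroke bexarotene mice and 1.31 in aged stroke vehicle mice. Without stroke it stayed at 0.0327 to 0.180 CPM per kb.

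Bexarotene raised Tgm2 in mice without stroke at both ages and Hic1 in aged mice with stroke, and over the 3 settings together it raised all 3 genes. Calls here mean an adjusted p under 0.05 in edgeR's quasi-likelihood test with Benjamini-Hochberg adjustment over all genes tested. In young mice 1 of the 3 members was called, where 0.419% of all genes were called higher. In aged mice without stroke 1 of 3 was called, against 0.238% of all genes called higher, and in aged mice with stroke 1 of 3, against 0.0515%. With the bexarotene effect averaged over the 3 settings, all 3 members were called higher, against 1.38% of all genes. Stroke raised Tgm2 and Hic1 and lowered Dhrs3 under both treatments. There 3 of 3 members were called under bexarotene, against 48.0% of all genes, and 3 of 3 under vehicle, against 48.3%, so a call by itself set the members little apart from other genes. Libraries of the groups did not overlap for 3 of 3 members in either stroke comparison, against 56.3% of all genes under bexarotene and 56.1% under vehicle. Age gave no call for the 3 genes in edgeR, DESeq2 or limma voom, with 1 of 3 at an unadjusted p under 0.05 in edgeR under vehicle (Dhrs3) and 0 under bexarotene, where 0.960% of all genes were called under bexarotene and 1.70% under vehicle.

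**Figure D1:**
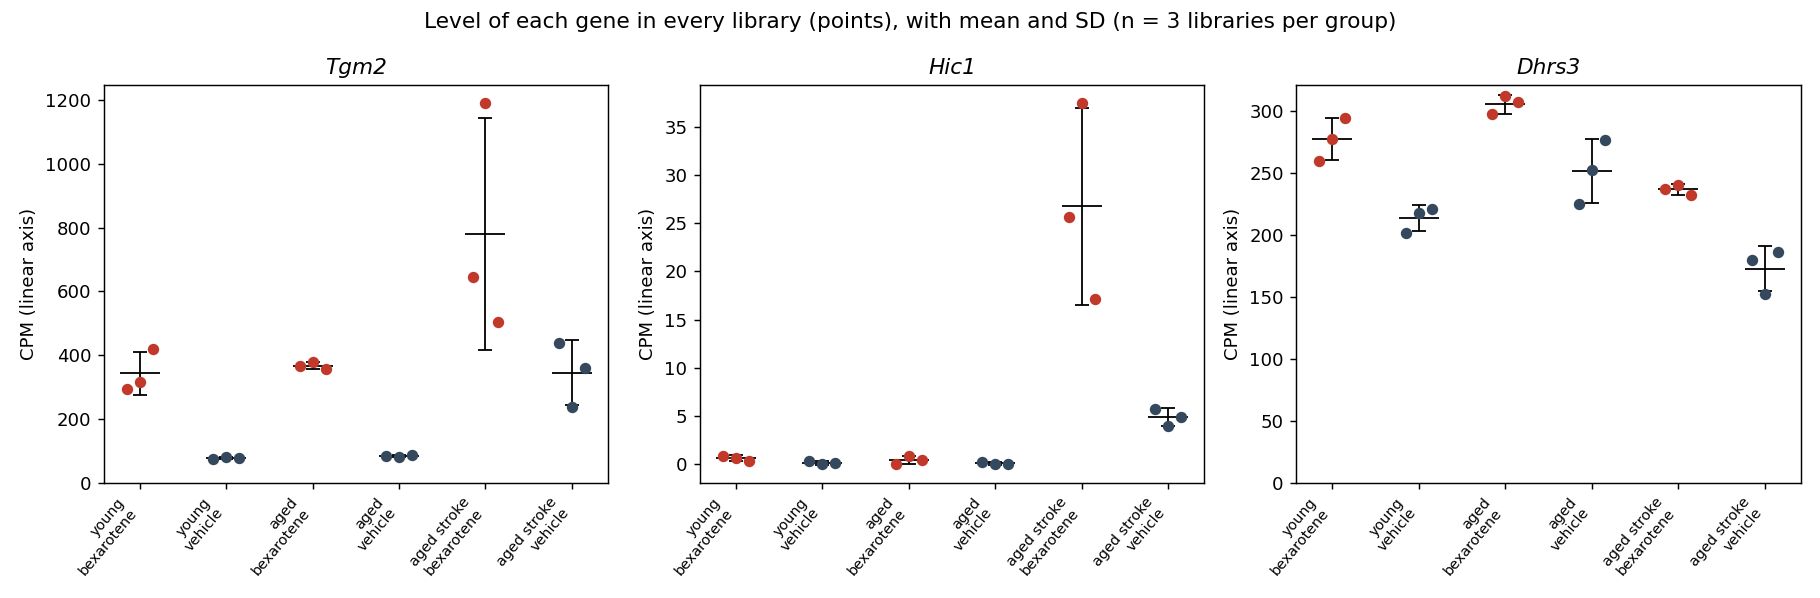
Level of Tgm2, Hic1 and Dhrs3 as scaled counts (CPM, linear axis) in each of the 18 libraries (points, red for bexarotene and blue for vehicle), with the mean and SD of each group of 3. Tgm2 bexarotene libraries lie above their vehicle libraries in every setting, Hic1 is near 0 without stroke and reaches 37.5 CPM with it, and Dhrs3 stays between 152 and 312 CPM.

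Tgm2, the crosslinking enzyme, had 294, 316 and 420 CPM in young bexarotene mice, against 74.8, 79.7 and 78.0 CPM in young vehicle mice. The lowest bexarotene library was thus far above the highest vehicle library, and the vehicle libraries were tightly grouped. The means were 344 ± 67.3 CPM under bexarotene and 77.5 ± 2.48 CPM under vehicle (SD, n = 3 each). The fitted log2 fold change was 2.15 ± 0.27 (SE, 95% interval 1.58 to 2.72), with an adjusted p of 0.000873 in edgeR's quasi-likelihood test, the rank of 11 among all genes by p. In the young comparison 2 of the 3 members, Tgm2 and Dhrs3, had bexarotene libraries wholly above the vehicle libraries, which 7.09% of all genes showed.

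In aged mice without stroke the Tgm2 levels were 365, 378 and 357 CPM under bexarotene, against 83.3, 79.8 and 86.0 CPM under vehicle. Both groups were tight and far apart, with means of 367 ± 10.9 CPM under bexarotene and 83.0 ± 3.07 CPM under vehicle (SD, n = 3 each). The log2 fold change was 2.14 ± 0.27 (95% interval 1.58 to 2.71) with an edgeR adjusted p of 0.00192, the rank of 5 by p. Without replicate 1 of every group, which leaves 2 libraries a group, the Tgm2 value was 2.22 in young mice (edgeR adjusted p = 0.134) and 2.15 in aged mice (edgeR adjusted p = 0.119), and neither was called. The difference between the aged and the young response was -0.01 ± 0.36 on the log2 scale (95% interval -0.78 to 0.76, edgeR adjusted p = 1). That interval still allows a smaller or a larger response with age.

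With stroke, Tgm2 was at 645, 1192 and 503 CPM in aged bexarotene mice, against 439, 238 and 360 CPM in aged vehicle mice. The groups did not overlap, but both were wide. The second bexarotene library was far above the other two, and the lowest bexarotene library stood only a little above the highest vehicle library. The means were 780 ± 364 CPM under bexarotene and 345 ± 101 CPM under vehicle (SD, n = 3 each), and the log2 fold change of 1.17 ± 0.26 (95% interval 0.63 to 1.72) was not called, with an edgeR adjusted p of 0.171. Without the second bexarotene library it was 0.73 with an edgeR adjusted p of 0.176. On the same counts DESeq2 gave 1.17 with an adjusted p of 0.017, which is past the threshold. That second library also had the highest monocyte marker sum of its group, at 5318 CPM. The sum was 2773 CPM in the first bexarotene library and 3243 CPM in the third, which had the lowest Tgm2 of the group. The vehicle libraries with stroke had sums of 3867, 3018 and 4825 CPM in replicates 1 to 3. Among them the lowest sum was in the library with the lowest Tgm2, but the highest was in that with the middle Tgm2 (360 CPM). The part of these markers in the Tgm2 levels was not tested. The response with stroke minus that without stroke in aged mice was -0.97 ± 0.36 on the log2 scale (95% interval -1.73 to -0.20), with an unadjusted p of 0.0163 and an edgeR adjusted p of 1. A smaller Tgm2 response with stroke therefore did not pass the test over all genes, although with no filter on low counts it did (edgeR adjusted p = 0.000119). In this difference edgeR called 0 genes, with 638 at an unadjusted p under 0.05, DESeq2 called 9 and limma voom called 0. With no filter on low counts edgeR called 256 genes in it, so Tgm2 was 1 of many called there.

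Stroke itself raised Tgm2. Under bexarotene, aged mice with stroke had 503 to 1192 CPM, against 357 to 378 CPM in aged mice without stroke, a log2 fold change of 1.09 ± 0.26 with an edgeR adjusted p of 0.00226. Under vehicle, aged mice with stroke had 238 to 439 CPM, against 79.8 to 86.0 CPM without stroke, a log2 fold change of 2.06 ± 0.26 with an edgeR adjusted p of 1.06e-05. The level in stroke mice given vehicle, 345 CPM, was thus close to the 344 and 367 CPM of the bexarotene groups without stroke. In order of mean level, aged stroke bexarotene mice came first, and aged bexarotene, aged stroke vehicle and young bexarotene mice followed with means that lay within their SDs of each other. Aged vehicle and young vehicle mice came last, at 83.0 and 77.5 CPM. Among vehicle mice every aged library was above every young library for 2 of the 3 members, Tgm2 and Dhrs3, which 9.69% of all genes showed, but the Tgm2 log2 fold change with age was 0.10 ± 0.26 (95% interval -0.45 to 0.65, edgeR adjusted p = 0.937). Under bexarotene the aged and young libraries overlapped, and the age difference was 0.09 ± 0.25 (edgeR adjusted p = 0.940).

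Exons of Tgm2 overlap exons of a pair of genes on the opposite strand, Rprd1b over 370 bp and Gm20412 over 633 bp. No source used here says whether the authors counted by strand, so reads in these stretches cannot be told apart. Gm20412 had no counts in any library. Rprd1b, which encodes a protein that binds RNA polymerase II, averaged 43.9 to 60.7 CPM over the 6 groups and was not called in any bexarotene comparison, with log2 fold changes of 0.02 in young, -0.20 in aged and 0.24 in aged stroke mice.

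Hic1, the repressor, was close to the detection floor in every library without stroke. It had 9, 6 and 4 counts in young bexarotene mice, against 4, 0 and 2 counts in young vehicle mice. In aged mice it had 0, 10 and 5 counts under bexarotene, against 3, 0 and 1 counts under vehicle. Bexarotene and vehicle libraries touched or overlapped at both ages, and 1 bexarotene library had no count at all. Summed over libraries and scaled to depth, the ratio of bexarotene to vehicle was 3.25 in young mice (19 against 6 counts, exact 95% counting interval 1.25 to 9.94) and 3.79 in aged mice (15 against 4 counts, interval 1.21 to 15.7). These intervals leave out the spread between libraries. The fitted log2 fold changes that include it were 1.68 ± 0.86 in young mice (edgeR adjusted p = 0.640) and 1.83 ± 0.97 in aged mice (edgeR adjusted p = 0.810), and neither was called. Age could not be read at these counts, with 15 counts in aged and 19 in young bexarotene mice, and 4 in aged and 6 in young vehicle mice.

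With stroke, Hic1 was measured well. Aged bexarotene mice had 740, 568 and 370 counts, or 25.6, 37.5 and 17.2 CPM, against 118, 65 and 94 counts, or 5.80, 3.96 and 4.94 CPM, in aged vehicle mice. Every bexarotene library was above every vehicle library, with a clear gap, and in aged mice with stroke all 3 members showed this order, against 5.81% of all genes. The means were 26.8 ± 10.2 CPM under bexarotene and 4.90 ± 0.92 CPM under vehicle (SD, n = 3 each), and the summed counts gave a ratio of 5.15 (exact 95% counting interval 4.54 to 5.87). The log2 fold change was 2.44 ± 0.44 (95% interval 1.52 to 3.36) with an edgeR adjusted p of 0.0472, the rank of 9 by p among the 9 genes called. That call lay close to the threshold. It was lost when any 1 of the 6 stroke libraries was left out, at log2 fold changes of 2.12 to 2.69 and adjusted p of 0.0773 to 0.255. It was also lost without replicate 2 or 3 of young bexarotene, or without replicate 3 of young vehicle, aged bexarotene or aged vehicle mice, at 2.44 to 2.46. Scaling by RLE (edgeR adjusted p = 0.0515) or by library totals (0.0611) ended the call too, while DESeq2 gave 2.44 and called it. The difference of the bexarotene response with and without stroke in aged mice was 0.61 ± 1.35 on the log2 scale (edgeR adjusted p = 1), an error too wide to say whether the response differed.

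Mural cells and fibroblasts are known to express Hic1, so their markers were read in the same libraries. The summed level of 11 mural and fibroblast markers in mice with stroke was 4.02 to 13.8 CPM under bexarotene and 10.6 to 48.8 CPM under vehicle, with 2 of the 11 at 0 under bexarotene and 1 under vehicle. In replicates 1 to 3 under vehicle the sum was 48.8, 13.5 and 10.6 CPM, so the top of that range was 1 library. The part of these cells in the Hic1 levels was not tested. The sum of 8 endothelial markers was 21 to 26.2 CPM under bexarotene and 22.8 to 45.4 CPM under vehicle. The monocyte sum was 2770 to 5320 CPM under bexarotene and 3020 to 4820 CPM under vehicle, so those groups overlapped.

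Stroke raised Hic1 more than either other member. Under bexarotene, aged mice with stroke had 17.2 to 37.5 CPM and those without stroke 0 to 10 counts per library, a ratio of 53.5 over summed counts (1678 against 15 counts, exact 95% counting interval 32.3 to 95.7). The fitted log2 fold change was 5.80 ± 0.58 with an edgeR adjusted p of 2.65e-07. Under vehicle, aged mice with stroke had 3.96 to 5.80 CPM and those without stroke 0 to 3 counts per library, a ratio of 39.3 (277 against 4 counts, interval 15.2 to 145). There the fitted log2 fold change was 5.19 ± 0.71 with an edgeR adjusted p of 1.06e-05. All 6 stroke libraries were above all 6 aged libraries without stroke. The sum of the 11 mural and fibroblast markers was 4.02 to 13.8 CPM with stroke under bexarotene, against 6.28 to 6.80 CPM without stroke. Under vehicle it was 48.8, 13.5 and 10.6 CPM in replicates 1 to 3 with stroke, against 5.56 to 11.6 CPM without. Of the 8 markers of this list that could be tested, 6 were higher with stroke in the fit under bexarotene and 5 under vehicle. Col3a1 was called higher under bexarotene (1 of 8), and Col3a1 and Dcn under vehicle (2 of 8), with 0 called lower. Over all genes 48.0% were called with stroke under bexarotene and 48.3% under vehicle. The part of these cells in the stroke difference was not tested. In order of mean level, aged stroke bexarotene and aged stroke vehicle mice stood apart at 26.8 and 4.90 CPM, and neighbours among the other 4 groups, at 0.123 to 0.674 CPM, lay within their spread of each other.

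Promoter sequences were looked up because the 3 genes share a known inducer, and retinoid receptors bind pairs of the 6-base half-site AGGTCA (the usual form) or its variants, searched here as AGTTCA (G to T inside), GGGTCA (A to G at the start) and GGTTCA (both changes). RefSeq windows of 300 bases, from 250 before to 50 after a gene start, were matched by symbol for 2 of the 3 members, Hic1 with 2 starts and Dhrs3 with 3. Tgm2 had no entry. The windows below are those of both Hic1 starts and the first Dhrs3 start, from the RefSeq table of build GRCm38.p6, which is not the build the authors used. They are written 5′ to 3′ along the gene with any half-site on either strand in capitals.
Hic1 promoter 1, chr11:75170206-75170505, minus strand: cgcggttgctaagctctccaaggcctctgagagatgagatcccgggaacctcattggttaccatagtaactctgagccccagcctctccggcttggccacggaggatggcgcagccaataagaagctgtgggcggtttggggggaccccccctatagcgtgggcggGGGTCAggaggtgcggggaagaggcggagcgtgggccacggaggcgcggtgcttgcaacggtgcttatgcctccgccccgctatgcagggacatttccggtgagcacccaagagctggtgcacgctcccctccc
Hic1 promoter 2, chr11:75168103-75168402, minus strand: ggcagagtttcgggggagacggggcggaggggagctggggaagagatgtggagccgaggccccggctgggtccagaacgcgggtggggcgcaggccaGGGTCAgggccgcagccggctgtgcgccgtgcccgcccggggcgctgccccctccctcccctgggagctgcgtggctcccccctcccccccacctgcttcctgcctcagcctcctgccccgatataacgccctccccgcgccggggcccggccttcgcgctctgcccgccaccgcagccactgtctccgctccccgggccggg
Dhrs3 promoter 1, chr4:144892577-144892876, plus strand: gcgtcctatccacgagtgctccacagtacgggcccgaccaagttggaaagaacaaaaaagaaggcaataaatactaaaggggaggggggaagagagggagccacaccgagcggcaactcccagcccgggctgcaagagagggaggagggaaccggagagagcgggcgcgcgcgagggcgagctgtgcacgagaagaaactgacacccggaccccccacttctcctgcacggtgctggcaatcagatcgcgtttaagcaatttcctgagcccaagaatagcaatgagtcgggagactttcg
Each Hic1 window held 1 half-site, GGGTCA, at positions -84 to -79 from the first start and at -153 to -148 from the second. None of the 3 Dhrs3 windows held one of the 4 words. A half-site on either strand was common, with at least 1 of the 4 words in 43.7% of 32851 promoter windows and GGGTCA in 13.7%. No member window held a pair of half-sites spaced as a direct repeat with 1, 2 or 5 bases between, and such repeats occurred in 0.222%, 0.268% and 0.0974% of all windows. The Hic1 windows held 20 and 29 CpG dinucleotides, and 73.5% and 87.1% of all windows had fewer. Their G and C content was 64.7% and 77.3%. The 3 Dhrs3 windows held 21, 10 and 9 CpG, and 75.2%, 56.5% and 54.2% of all windows had fewer. The G and C content of these was 58.7%, 45% and 45.3%. These are matches of letters in one window, and binding was not measured.

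Dhrs3, the retinaldehyde reductase, was called higher with bexarotene in the average over the 3 settings and in none of them alone, and its fold changes were smaller than those of Tgm2 and Hic1. In young mice its levels were 260, 278 and 294 CPM under bexarotene, against 202, 218 and 221 CPM under vehicle. In aged mice they were 297, 312 and 307 CPM under bexarotene, against 225, 253 and 276 CPM under vehicle. In aged mice with stroke they were 237, 241 and 232 CPM under bexarotene, against 180, 152 and 186 CPM under vehicle. In each setting the lowest bexarotene library was above the highest vehicle library, and in aged mice without stroke 2 of the 3 members, Tgm2 and Dhrs3, showed this order, against 6.47% of all genes. The group means were 277 ± 17.1 CPM in young bexarotene and 214 ± 10.3 CPM in young vehicle mice, 306 ± 7.50 CPM in aged bexarotene and 251 ± 25.8 CPM in aged vehicle mice, and 237 ± 4.15 CPM in aged stroke bexarotene and 173 ± 18.1 CPM in aged stroke vehicle mice (SD, n = 3 each).

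The log2 fold change of Dhrs3 was 0.38 ± 0.09 in young mice (95% interval 0.18 to 0.57, edgeR adjusted p = 0.0816) and 0.28 ± 0.09 in aged mice (interval 0.09 to 0.48, edgeR adjusted p = 0.451). In aged mice with stroke it was 0.46 ± 0.09 (interval 0.26 to 0.65, edgeR adjusted p = 0.0974). None of the 3 was called in its own setting. The young one was called by DESeq2 (0.36, adjusted p = 0.0195) and by edgeR with library totals (0.39, adjusted p = 0.0256). The stroke one was called by DESeq2 (0.45, adjusted p = 0.00261), by limma voom (0.46, adjusted p = 0.0437) and by edgeR with library totals (0.45, adjusted p = 0.0435), as it was in the fit with a replicate block. Averaged over the settings the log2 fold change was 0.37 ± 0.05 (interval 0.26 to 0.48), with an edgeR adjusted p of 0.000641. The response in aged minus young mice was -0.09 ± 0.13 (interval -0.37 to 0.18), and with minus without stroke 0.17 ± 0.13 (interval -0.10 to 0.45), each with an edgeR adjusted p of 1.

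Stroke lowered Dhrs3. Under bexarotene, aged mice with stroke had 232 to 241 CPM, against 297 to 312 CPM without stroke, so the log2 level fell by 0.37 ± 0.09 with an edgeR adjusted p of 0.00289. Under vehicle, aged mice with stroke had 152 to 186 CPM, against 225 to 276 CPM without stroke, and the log2 level fell by 0.54 ± 0.09 with an edgeR adjusted p of 9.36e-05. No library with stroke reached the lowest aged library of the same treatment without it. The same libraries had lower microglial marker sums, at 16000 to 19900 CPM with stroke under bexarotene and 34400 to 40100 CPM without, and at 17100 to 18300 CPM with stroke under vehicle and 36500 to 39900 CPM without. In order of mean level the groups ran aged bexarotene, young bexarotene, aged vehicle, aged stroke bexarotene, young vehicle and aged stroke vehicle. Libraries of young bexarotene and aged vehicle mice overlapped, and aged vehicle mice lay within their SD of aged stroke bexarotene mice. Aged libraries were above young libraries under both treatments, and under bexarotene Dhrs3 was the 1 of 3 members to show this, against 8.95% of all genes. The age difference was not called, at 0.14 ± 0.09 under bexarotene (edgeR adjusted p = 0.617) and 0.23 ± 0.09 under vehicle (edgeR adjusted p = 0.262).

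**Figure D2:**
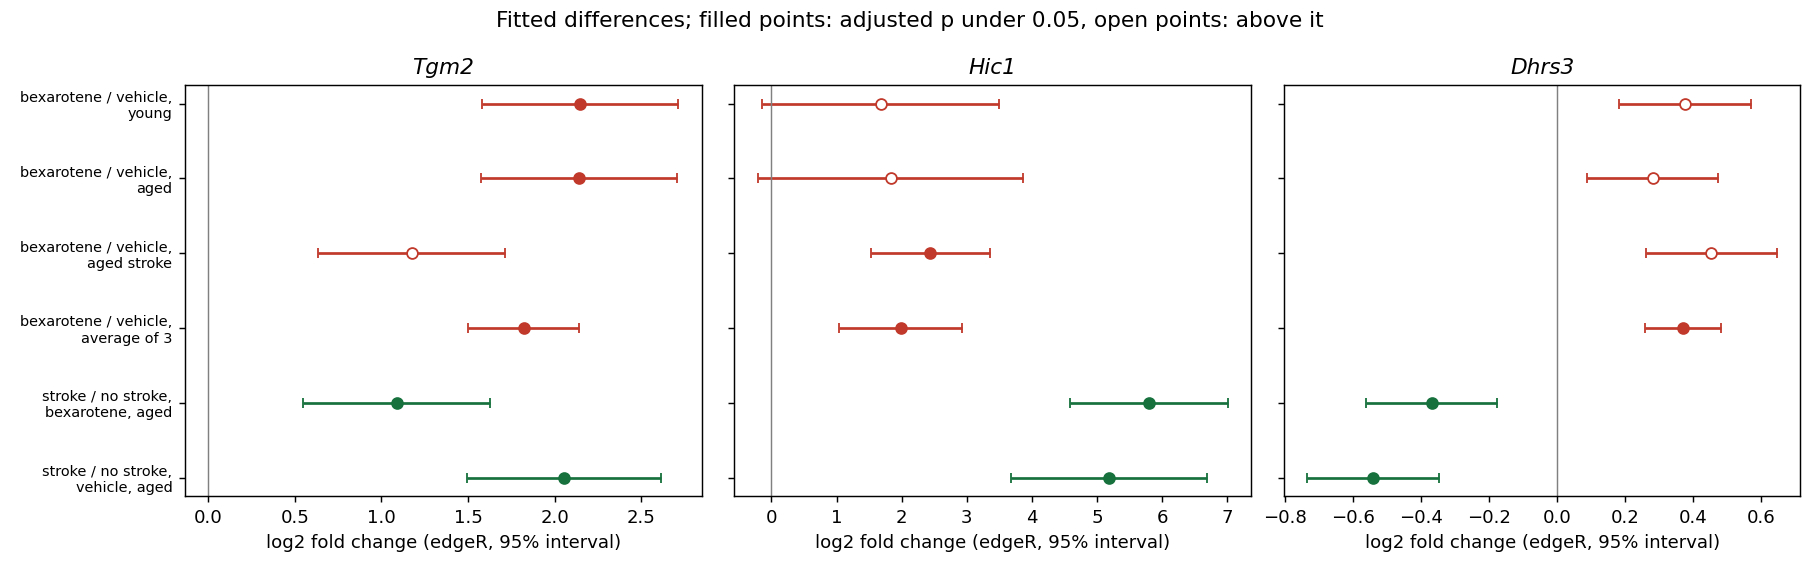
Fitted log2 fold changes from edgeR with 95% intervals for each gene, bexarotene over vehicle (red) and stroke over no stroke (green), filled where the adjusted p is under 0.05. Tgm2 sits at 2.15 and 2.14 without stroke and at 1.17 with it, Hic1 has wide intervals without stroke, and Dhrs3 is above 0 for bexarotene and below 0 for stroke.

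For Tgm2 and Dhrs3 the average of the bexarotene effect over the 3 settings had a smaller error than any single setting. For Tgm2 it was 1.82 ± 0.15 on the log2 scale (95% interval 1.5 to 2.14) with an edgeR adjusted p of 3.95e-06. For Hic1 it was 1.98 ± 0.45 (interval 1.03 to 2.93) with an edgeR adjusted p of 0.0248. The Hic1 average was no longer called without replicate 1 of young bexarotene, replicate 3 of young vehicle, or replicate 2 or 3 of aged bexarotene or aged vehicle mice, at 1.70 to 1.97. With limma voom it was 1.78 and was not called. In the authors' deposited table for young mice, Tgm2 was listed at position 2 of 197 genes with a log2 fold change of 2.11, and Dhrs3 at position 189 with 0.29. The authors' deposited table for aged mice listed Tgm2 at position 1 of 149 with 2.12. The authors' deposited table for aged mice with stroke listed Hic1 at position 4 of 96 with 2.26 and Dhrs3 at position 84 with 0.36, and it did not list Tgm2. The authors' deposited table of aged against young vehicle mice, with 451 genes, listed none of the 3.

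No receptor that retinoids act through was called for bexarotene, where calls were rare among all genes. Of 20 listed receptors and partners 18 were tested, and 0 were called in any of the 3 settings by edgeR, DESeq2 or limma voom. Over all 15528 genes tested, edgeR called 79 in young, 40 in aged and 9 in aged stroke mice. With so few calls, 0 of 18 sets the receptors little apart from other genes. At an unadjusted p under 0.05 edgeR had 1 in young mice (Rxrg), 2 in aged mice (Rxra and Rara) and 1 in aged stroke mice (Pparg). Over all genes it had 1300, 1012 and 988. The bexarotene counts in the lists below stand against these same numbers. The list had medians of 0.04 in young, 0.07 in aged and -0.02 in aged stroke mice on the log2 scale, against medians of all genes near 0. Rara, the alpha retinoic acid receptor, was higher with stroke. It was at 26.2 to 40.5 CPM in aged stroke bexarotene mice, against 3.50 to 7.50 CPM in aged bexarotene mice, a log2 fold change of 2.65 ± 0.37 (edgeR adjusted p = 1.55e-05). Under vehicle it was at 34.5 to 40.7 CPM with stroke, against 1.34 to 3.62 CPM without, a log2 fold change of 3.85 ± 0.40 (edgeR adjusted p = 6.08e-07). In both pairs the stroke libraries were far above the others, as the monocyte marker sums were. Rarg, the gamma receptor, also rose with stroke, by 1.12 under bexarotene and 1.38 under vehicle. Rxra and Rxrb, which encode the alpha and beta RXR, fell with stroke, while Rxrg, the gamma RXR, was not called (-0.11 ± 0.42 under bexarotene and -0.92 ± 0.42 under vehicle). Rxrg was higher with age, by 3.18 ± 0.51 under bexarotene (edgeR adjusted p = 0.003) and 5.71 ± 0.66 under vehicle (edgeR adjusted p = 5.47e-05). The young vehicle group held only 5 Rxrg counts. Rxra fell by 0.49 ± 0.11 on the log2 scale under bexarotene (edgeR adjusted p = 0.000914) and by 0.71 ± 0.11 under vehicle (edgeR adjusted p = 2.57e-05). In all, 7 receptors and partners rose and 4 fell with stroke under each treatment, where 48.0% of all genes were called under bexarotene and 48.3% under vehicle. The counts with stroke in the lists below stand against the same 48.0% and 48.3%. Rarb, a classical retinoic acid target, was too low to test.

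Genes for retinoid uptake, carriage and metabolism gave 0 calls for bexarotene in any of the 3 settings by edgeR, DESeq2 or limma voom, among 20 tested of 37 listed. At an unadjusted p under 0.05 edgeR had 0 in young mice, 2 in aged mice (Rdh12 and Dhrs9) and 0 in aged stroke mice. Over all 15528 genes it had 1300, 1012 and 988. Rdh10, which oxidises retinol, was at 7.38 to 10.1 CPM in aged stroke bexarotene mice, against 16.8 to 20.2 CPM in aged bexarotene mice. It was at 9.93 to 11.0 CPM in aged stroke vehicle mice, against 20.2 to 23.2 CPM in aged vehicle mice. It fell with stroke by 1.00 ± 0.16 on the log2 scale under bexarotene (edgeR adjusted p = 6.64e-05) and by 1.04 ± 0.16 under vehicle (edgeR adjusted p = 3.85e-05), the same direction as Dhrs3. With stroke 2 genes of this list rose and 5 fell under each treatment. Fabp5, a carrier of fatty acids and retinoic acid, was at 58.0 to 209 CPM in aged stroke bexarotene mice, against 3.09 to 4.16 CPM in aged bexarotene mice. The 3 Aldh1a genes, which make retinoic acid, and the Cyp26 genes, which break it down, were too low to test. Cyp26a1, a strongly induced retinoic acid target in many cells, had 113, 25 and 15 counts in aged stroke bexarotene mice, against 10, 6 and 0 counts in aged stroke vehicle mice. Without stroke it had 0 to 6 counts per library under bexarotene, against no counts in any vehicle library. The ratio with stroke over summed counts was 8.14 (153 against 16 counts, exact 95% counting interval 4.85 to 14.6), and the first bexarotene library held most of it, whereas Tgm2 and Hic1 were highest in the second.

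Among other retinoic acid targets, 12 of 26 listed were tested. Cd38, which encodes an NAD-consuming enzyme of the cell surface and is induced by retinoic acid in myeloid cells, was called in mice without stroke. It was at 98.3 to 141 CPM in young bexarotene mice, against 35.0 to 56.5 CPM in young vehicle mice, a log2 fold change of 1.39 ± 0.27 (edgeR adjusted p = 0.0298). In aged mice it was at 72.5 to 95.7 CPM under bexarotene, against 18.8 to 33.1 CPM under vehicle, a log2 fold change of 1.66 ± 0.27 (edgeR adjusted p = 0.0213). With stroke it was at 90.9 to 189 CPM under bexarotene, against 114 to 145 CPM under vehicle, with a log2 fold change of 0.00 ± 0.25 (edgeR adjusted p = 0.999). Like Tgm2, Cd38 was higher with stroke under vehicle, by 2.30 ± 0.28 (edgeR adjusted p = 4.78e-06), and its response with minus without stroke was -1.66 ± 0.37 (edgeR adjusted p = 0.814). No other gene of this list was called for bexarotene in any setting by edgeR, DESeq2 or limma voom. In the average over settings edgeR and limma voom called Cd38 alone, and DESeq2 called Asb2 and Cebpe too. The list's medians were 0.15 in young, 0.45 in aged and 0.14 in aged stroke mice. With stroke 4 rose and 2 fell under bexarotene, and 5 rose and 2 fell under vehicle.

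Genes tied to the members by function were described in the same way. Of 16 genes listed as the HIC1 paralogue, corepressors and reported targets, Epha2 was called in all 3 bexarotene settings and was the only gene of the list called in any of them. Epha2 encodes an ephrin receptor that is reported to be repressed by HIC1. It was at 37.1 to 44.9 CPM in young bexarotene mice, against 11.8 to 13.2 CPM in young vehicle mice, and at 26.2 to 40.3 CPM in aged bexarotene mice, against 12.9 to 19.2 CPM in aged vehicle mice. With stroke it was at 31.8 to 36.7 CPM under bexarotene, against 16.2 to 18.3 CPM under vehicle. The log2 fold change was 1.71 ± 0.17 in young mice (edgeR adjusted p = 3.79e-05), 1.19 ± 0.17 in aged mice (edgeR adjusted p = 0.00237) and 0.97 ± 0.16 in aged stroke mice (edgeR adjusted p = 0.0277). In every setting the bexarotene libraries lay wholly above the vehicle libraries. Ackr3, a chemokine scavenging receptor also reported as repressed by HIC1, was called in the average over settings, at 1.39 ± 0.29 (edgeR adjusted p = 0.0127), though not by limma voom. With stroke 3 genes of this list rose and 3 fell under bexarotene, and 3 rose and 4 fell under vehicle.

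Of 15 listed partners of transglutaminase 2 in matrix binding and the uptake of dying cells, 14 were tested and 0 were called for bexarotene in any setting by edgeR, DESeq2 or limma voom. At an unadjusted p under 0.05 edgeR had 2 in young mice (Axl and Sdc4), 1 in aged mice (Itgb3) and 1 in aged stroke mice (Sdc4). Over all 15528 genes it had 1300, 1012 and 988. With stroke 5 rose and 4 fell under bexarotene, where 48.0% of all genes were called, and 6 rose and 5 fell under vehicle, where 48.3% were. Axl, a receptor for dying cells, also rose with age, by 1.59 ± 0.25 under bexarotene (edgeR adjusted p = 0.00367) and by 2.00 ± 0.26 under vehicle (edgeR adjusted p = 0.000374). In the transglutaminase family itself only Tgm1 and F13a1 of the 8 other listed genes were tested. F13a1, the coagulation factor XIII A subunit, was at 387 to 658 CPM in aged stroke bexarotene mice, against 194 to 201 CPM in aged bexarotene mice, and at 580 to 730 CPM in aged stroke vehicle mice, against 167 to 221 CPM in aged vehicle mice. Its log2 fold change with stroke was 1.36 ± 0.15 under bexarotene (edgeR adjusted p = 5.74e-07) and 1.77 ± 0.15 under vehicle (edgeR adjusted p = 3.79e-08). Neither Tgm1 nor F13a1 was called for bexarotene.

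**Figure D3:**
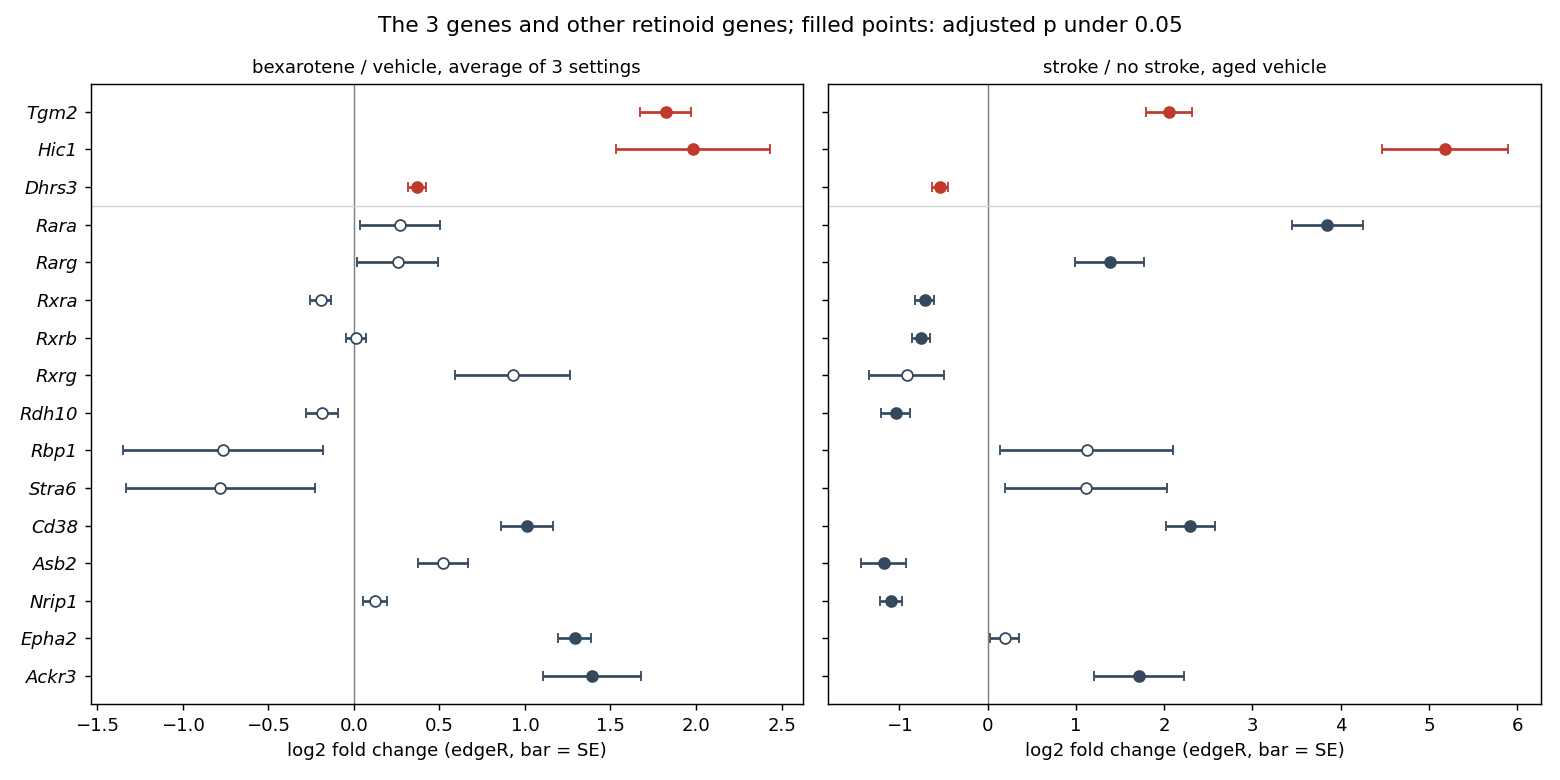
Log2 fold changes (edgeR, bars are SE) of the 3 genes (red) and of other genes (blue) for bexarotene averaged over 3 settings (left) and for stroke in aged vehicle mice (right), filled where the adjusted p is under 0.05. The blue genes are retinoid genes except Epha2 and Ackr3. Those come from the list of the HIC1 paralogue, corepressors and reported targets, and are the only genes of it called in the average. For bexarotene Cd38, Epha2 and Ackr3 are filled beside the 3 genes while the receptors are open, and for stroke Rara stands at 3.85 while Rxra, Rxrb and Rdh10 lie below 0 with Dhrs3.

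Markers of other cell types were compared in the bexarotene settings. The summed level of 7 astrocyte markers was 575 to 905 CPM in young bexarotene mice, against 302 to 417 CPM in young vehicle mice, and 489 to 728 CPM in aged bexarotene mice, against 333 to 481 CPM in aged vehicle mice. With stroke it was 108 to 225 CPM under bexarotene and 117 to 157 CPM under vehicle. This sum was carried by Slc1a3, a glutamate transporter gene, at 555 to 888 CPM in young bexarotene mice and 286 to 388 CPM in young vehicle mice. Slc1a3 was called higher with bexarotene in the average over settings, at 0.73 ± 0.155 on the log2 scale (edgeR adjusted p = 0.0212), and by edgeR in no single setting. The other 6 astrocyte markers summed to 7.33 to 20.6 CPM in young bexarotene mice and 16.6 to 29.1 CPM in young vehicle mice. In aged mice they summed to 5.37 to 18.4 CPM under bexarotene and 12.1 to 32.1 CPM under vehicle. With stroke they summed to 13.7 to 18.7 CPM under bexarotene and 23.3 to 43.3 CPM under vehicle, so they did not run higher with bexarotene. Monocyte marker sums were 45.9 to 201 CPM in young bexarotene mice and 82.4 to 187 CPM in young vehicle mice. In aged mice without stroke they were 121 to 195 CPM under bexarotene and 71.7 to 104 CPM under vehicle, and the groups did not overlap. The sum of 9 neutrophil markers in aged mice without stroke was 589 to 1450 CPM under bexarotene and 195 to 399 CPM under vehicle, with all 9 higher in the fit (median 1.70 on the log2 scale) and none called by edgeR. With stroke, the sum of 8 markers of choroid plexus and ependyma was 143 to 725 CPM under bexarotene and 936 to 3240 CPM under vehicle, with all 8 lower in the fit (median -1.95) and none called by edgeR. That sum also varied with the replicate number, and replicate 1 was highest in every group except aged stroke bexarotene. In young vehicle mice, for example, it was 2627, 424 and 764 CPM in replicates 1 to 3. The sum of 8 markers of border-associated macrophages with stroke was 708 to 1010 CPM under bexarotene and 1090 to 1150 CPM under vehicle. None of the monocyte, neutrophil, choroid plexus and border macrophage lists had a marker at 0. The part of the differences in these lists in the bexarotene results was not tested.

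Across the 18 libraries Tgm2 and Hic1 varied together (Pearson r = 0.757 of log2 CPM), while the correlation of Tgm2 with Dhrs3 was 0.151 and that of Hic1 with Dhrs3 was -0.359. After the group means were taken out, these were 0.194, 0.515 and -0.110. The points share their libraries, groups and depth. Of 13865 genes with a mean of at least 1 CPM, those most correlated with Tgm2 over the 18 libraries were Baiap2 (0.922), Osgin1 (0.919), Ssx2ip (0.902), Lrrc25 (0.900) and Mmd (0.890). Those most correlated with Hic1 were Angptl4 (0.957), C130050O18Rik (0.956), Hilpda (0.949), Trim25 (0.947) and Gm12751 (0.943). For Dhrs3 they included Stk10 (0.930), Irak2 (0.926), ENSMUSG00000120859 (0.892) and Mavs (0.880). Within groups the correlation of Lrrc25 with Tgm2 was 0.583 and that of Angptl4 with Hic1 0.702, while that of Mmd with Tgm2 was -0.0451. Angptl4 was at 22.5 to 28.5 CPM in aged stroke bexarotene mice, against 4.99 to 10.9 CPM in aged stroke vehicle mice. An order like that of Hic1 follows from its choice by correlation over these same libraries. The bexarotene fold change of Angptl4 was not called with stroke (1.85 ± 0.45, edgeR adjusted p = 0.231).

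The nearest coding neighbours of the members were not called for bexarotene where they could be tested. For bexarotene edgeR called only 79, 40 and 9 of all 15528 genes in young, aged and aged stroke mice. With stroke it called 48.0% of all genes under bexarotene and 48.3% under vehicle. A call or its lack therefore set the neighbours little apart from other genes. Smg6, 116 bp from Hic1, was not called in any comparison. Ovca2, 6422 bp away on the other side, fell with stroke by 0.67 under bexarotene (edgeR adjusted p = 0.00633) and by 0.88 under vehicle (edgeR adjusted p = 0.00079), opposite to Hic1. Vps13d, 44412 bp from Dhrs3, was not called in any comparison. Tti1, next to Tgm2, fell with stroke by 0.38 under bexarotene and by 0.52 under vehicle, and was not called for bexarotene.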

How the data were processed

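The authors deposited a table of raw counts per gene for 18 libraries (6 groups of 3). The submitters' processing notes name R 4.4.2, STAR 2.7.10a, Trimmomatic 0.40 and GATK, with build GRCm39. No source used here gives their roles, the counter, the annotation or the use of strand. The 4 comparison tables deposited by the authors hold, per gene, a baseMean signal, a log2 fold change with its error and raw and adjusted p-values, and all listed genes have an adjusted p under 0.05.

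Symbols came from GENCODE M21, with names for 52029 of 57010 genes, and from the authors' deposited tables (52033 in all). The test was edgeR 4.0.16 (R 4.3.3): filterByExpr kept 15528 genes, libraries were scaled by TMM, and 1 robust quasi-likelihood model was fitted to the 18 libraries together, with 12 residual degrees of freedom and Benjamini-Hochberg adjustment over all genes tested. CPM use the TMM-scaled totals. Correlations used log2 CPM with a prior count of 2. Replicates differed by more than sampling noise (chi-square per degree of freedom 6.19 to 40.3). Same-numbered replicates were checked for pairing by the correlation of their deviations from the group means (-0.113 to 0.386, over 0.1 in 27 of 45 pairs). All 3 pairs were over 0.1 for young bexarotene against young vehicle (0.259, 0.276 and 0.14) and for aged against young bexarotene (0.109, 0.3 and 0.126). The same held for aged bexarotene against young vehicle (0.275, 0.284 and 0.11). In every other pair of groups at least 1 of the 3 values was under 0.1, though replicate 1 was over 0.1 in most of them. This measure therefore does not settle which samples the numbers pair. The labels do not say what a number shares. The p-values measure the spread between these libraries. The pipeline was tested on simulated data. DESeq2 1.42.0, limma 3.58.1 (voom), RLE or total-count scaling, no filter, only the groups compared, a replicate block and each library left out were tried as alternatives.

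The members and gene lists were chosen with earlier results of these data known. The genes named besides the members were up to 4 called genes per list and comparison with the lowest p, chosen receptors and enzymes, the neighbours, and the 5 genes most correlated with each member, of which 1 is not reported here.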

Additional observations from a re-analysis of the deposited data

How the results depend on the processing

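Over 30 results for the 3 genes and 772 alternative values, 717 kept direction and side of the threshold. In 23 the sign changed, 0 of them with a call on either side. For the aged minus young response, Tgm2 (-0.01) was 0.0058 without a filter and 0.0080 with voom, with -0.11 to 0.17 leaving out libraries, and Hic1 (0.15) was -0.54 with voom, with -0.73 to 1.39. Leaving out libraries gave -1.88 to 0.24 for Hic1 with age under vehicle, -1.35 to 0.046 for Hic1 and -0.0059 to 0.27 for Tgm2 with age under bexarotene, and -0.60 to 1.498 for the Hic1 response with minus without stroke. Without replicate 1 of every group these 3 were 0.36, -0.0065 and -0.95. The stroke calls were kept in every alternative. For Hic1 with bexarotene after stroke, the call was lost with RLE (2.44) and library totals (2.43), and leaving out libraries gave 2.12 to 2.69 (2.63 without replicate 1 of every group). Its average over settings was lost with voom (1.78), and leaving out libraries gave 1.70 to 2.40 (2.82 without replicate 1 of every group). Dhrs3 in young mice was called with library totals (0.39) and DESeq2 (0.36). Dhrs3 with stroke was called with library totals (0.45), voom (0.46) and DESeq2 (0.45). Tgm2 with stroke was called without a filter (1.16) and with DESeq2 (1.17), and leaving out libraries gave 0.73 to 1.53. Its difference with minus without stroke was called without a filter (-0.97), and leaving out libraries gave -1.41 to -0.62. Tgm2 was not called without replicate 1 of every group in young (2.22, edgeR adjusted p = 0.134) and aged mice (2.15, edgeR adjusted p = 0.119). The causes were not tested. Over all genes, edgeR called 79 for bexarotene in young mice (17 to 457 over the alternatives), 40 in aged mice (9 to 339) and 9 in aged stroke mice (1 to 419), with the highest numbers without a filter. With age it called 149 under bexarotene (53 to 683) and 264 under vehicle (107 to 677). With a replicate block Dhrs3 with stroke was called (0.46, edgeR adjusted p = 0.0446), and Tgm2 in young mice stayed at 2.15 (edgeR adjusted p = 0.00518). The block changed no other call of the 3 genes, and in aged stroke mice 20 genes were called with it, against 9 without. Depth limits Hic1 without stroke, at 0 to 10 counts per library.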
